A study of Drosophila melanogaster with 4 samples.

Results

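The regions described here are the LSD1 clusters in the interior of chromosome arm 3R of Drosophila melanogaster, 1927 of the 9853 regions of significant enrichment in the list made from both replicates of the study. That list is called the combined list here, and each of its regions a cluster. A cluster belonged to the interior when its midpoint lay at least 2 Mb from either end of the arm sequence of 27905053 bp. The interior spans 23.9 Mb, and on this arm the low coordinates lie toward the centromere. No measured value chose the members. The last cluster left out on the centromere side ran from 1982948 to 1984176 and the first one kept from 2019942 to 2022284. On the telomere side the last one kept ran from 25902762 to 25903858, and the next one out began at 25905362.

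LSD1 was mapped by chromatin immunoprecipitation and sequencing (ChIP-seq) in nuclei of larvae at the third instar, taken from Oregon-R flies, a wild-type strain. The study has 4 samples, 2 libraries precipitated with the LSD1 antibody Q3430 and 2 input libraries of unselected chromatin. Each ChIP replicate has its own list of clusters, called against its own input per the labels. The labels name no tissue of the larva, so fewer cells with LSD1 at a site and less LSD1 per cell cannot be told apart. The labels do not state a biological source for each replicate, so the spread between the libraries may be technical.

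LSD1 is a histone demethylase, encoded in the fly by Su(var)3-3. It is known for removing methyl groups from the lysine of histone H3 that marks active promoters and enhancers, and its loss weakens the silencing of genes placed next to heterochromatin. It acts with the corepressor CoREST, and in the fly it is needed for normal gonad development. Arm 3R is known for carrying both Hox gene complexes, Antennapedia and bithorax. All positions below are those of FlyBase release 5, and no gene annotation of that release was used here, so regions are given by coordinates alone.

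The interior of 3R was a patchwork of bare and densely covered ground, also at a scale below that of whole megabases, and both replicates drew it alike. Replicate 1 placed 1049 clusters there, or 43.9 per Mb (exact 95% Poisson interval 41.3 to 46.6), and replicate 2 placed 1528, or 63.9 per Mb (interval 60.8 to 67.2). These clusters covered 22.0% of the interior in replicate 1 and 24.3% in replicate 2, a mean of 23.2 ± 1.6% (SD, n = 2). Replicate 2 thus had more clusters that together covered little more ground. Their median widths were 2326 bp in replicate 1 and 2036 bp in replicate 2, and the median distance from one cluster to the next was 5006 bp in replicate 1, against 3272 bp in replicate 2. Both replicates covered the same 4.37 Mb, which is 82.9% of the covered bases of replicate 1 and 75.4% of those of replicate 2. A total of 66.7% of the interior lay outside every cluster of all 3 lists. Intervals cover counting error only, and no list gives read numbers, so bare ground and ground with few reads cannot be told apart.

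Of the 1927 clusters of the combined list, 714 (37.1%, exact 95% binomial interval 34.9 to 39.3) overlapped a cluster of each replicate by at least 1 bp. Over the whole combined list this share was 38.1%, which lies within that interval. These 714 clusters, each counted in full, made up 74.0% of the combined bases in the interior, with a median width of 4838 bp. A further 184 (9.55%) met a cluster of replicate 1 only, against 10.1% over the whole list, and 477 (24.8%, interval 22.8 to 26.7) one of replicate 2 only. Over the whole list the share of replicate 2 only was 22.7%, just below that interval. In the interiors of other arms, with the same margins, it was 25.1% on 2L, 23.5% on 3L, 23.9% on 2R and 14.1% on X. The remaining 552 (28.6%, interval 26.6 to 30.7) met neither, against 29.1% over the whole list. The clusters without any support were short, with a median width of 1229 bp, and held 9.49% of the bases. When the overlap had to be at least 50% of both partners, 24.7% of the clusters were found in both replicates.

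Support went with width from one end of the range to the other. Of the 441 clusters of at most 1.3 kb, 0 overlapped both replicates (upper limit of the exact interval 0.833%) and 338 overlapped neither. The narrowest cluster of either replicate list is 1301 bp wide, so every cluster of this class is shorter than any in the replicate lists. Between 1.3 and 2 kb, 8.10% of 580 clusters were found in both, and between 2 and 5 kb 57.7% of 555 (interval 53.4 to 61.8). Of 187 clusters between 5 and 10 kb, 183 were found in both. All 104 clusters of 10 to 20 kb and all 60 over 20 kb overlapped clusters of each replicate. Over the whole combined list the shares found in both were close to these. They were 0.181, 8.07, 57.2 and 96.2% in the classes up to 10 kb, and 100% in the wider ones. A wide cluster is also met more easily by any other list, and no expectation for that was computed.

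**Figure D1:**
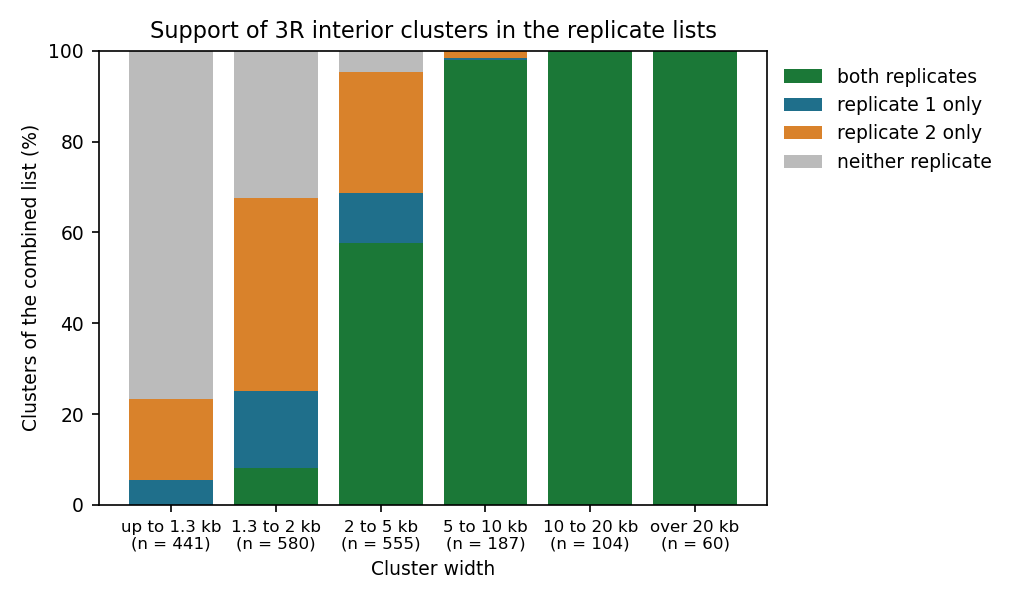
Share of the combined clusters of the 3R interior (y axis, percent) in 6 classes of cluster width (x axis), split by overlap of at least 1 bp with the replicate lists; n is the number of clusters per class. Clusters of at most 1.3 kb were found in both replicates in 0 of 441 cases, and all 164 clusters over 10 kb were.

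Seen from the replicate lists, most of what one replicate called on this arm was also called by the other. In replicate 1, 847 of the 1049 clusters were shared with replicate 2 (80.7%, interval 78.2 to 83.1), and over all sequences 80.9% were. In replicate 2, 972 of the 1528 were shared with replicate 1 (63.6%, interval 61.1 to 66.0), and over all sequences 66.3% were. In the other interiors this share of replicate 2 was 63.0% on 2L, 66.2% on 3L, 66.8% on 2R and 77.7% on X. The 202 single clusters of replicate 1 had a median width of 1669 bp, against 3057 bp for the shared ones, and the 556 single ones of replicate 2 had 1605.5 bp, against 2731.5 bp. Nearly all of either list reappeared in the combined list, 1044 of the 1049 clusters of replicate 1 and 1483 of the 1528 of replicate 2. For 780 pairs on this arm, each the other's largest overlap, the correlation of the authors' enrichment values was 0.75 by Pearson's r and 0.70 by Spearman's rho, and that of the widths 0.88 by r and 0.76 by rho. These are descriptions across clusters. Within each list wider clusters also had larger values. The rho of value and width was 0.79 for replicate 1, 0.66 for replicate 2 and 0.54 for the combined clusters, and the part of width in the correlation of values was not tested.

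At the scale of 100 kb, covered ground ran from nothing to everything. The interior was tiled with 239 full windows, and the covered share ran from 0 to 100% in replicate 1, with a median of 17.9% and quartiles of 8.37 and 30.8%. In replicate 2 it ran from 0 to 99.1%, with a median of 21.1% and quartiles of 9.90 and 34.2%. Over these windows the shares of the replicates had a Pearson's r of 0.96 and a Spearman's rho of 0.94, as a description across windows of 1 arm. Replicate 2 covered more than replicate 1 in 143 windows and less in 83. The median absolute difference was 3.17 percentage points, small beside the distance between the quartiles.

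**Figure D2:**
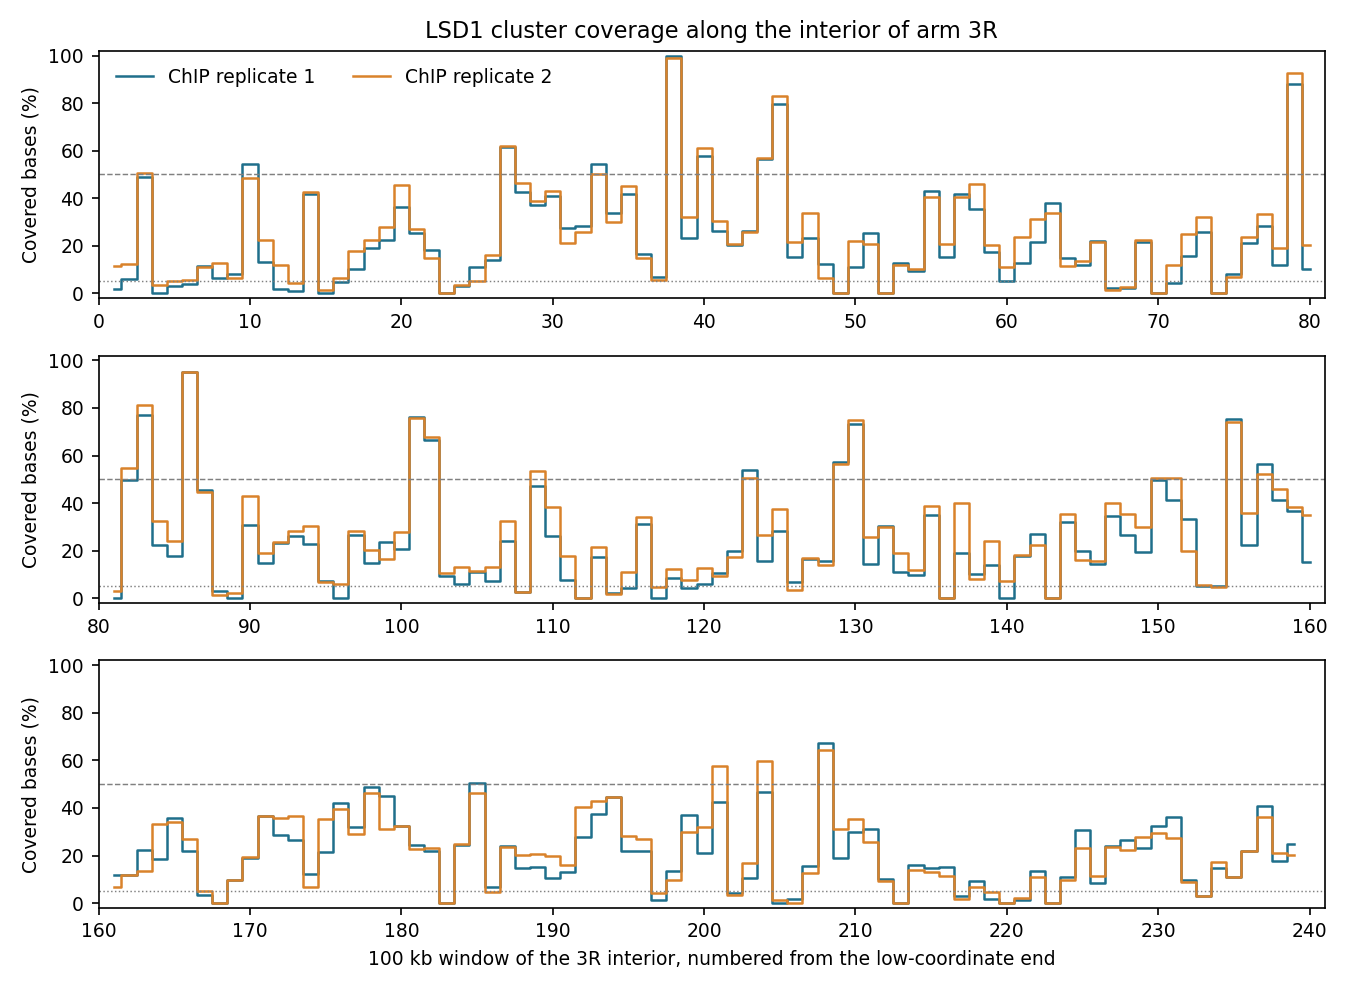
Covered bases (y axis, percent) in the 239 windows of 100 kb along the 3R interior, numbered from the low-coordinate end and drawn in 3 rows, for ChIP replicate 1 and ChIP replicate 2; dashed lines mark 50% and dotted lines 5%. The lines of the replicates run close together, and windows 38, 79 and 86 stand out with means of 99.5, 90.4 and 95.1%.

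A window was called rich when at least 50% of its bases were covered in each replicate, and poor when at most 5% were. Of the 239 windows 17 (7.11%) were rich, against 10.0% of the 989 windows of the interiors of 3R, 2L, 2R, 3L and X, and 34 (14.2%) were poor, against 14.7%. The rich windows formed 14 separate stretches and the poor ones 27, so that most stood alone. Neighbouring windows resembled each other little, with r of 0.18 in replicate 1 and 0.22 in replicate 2 over 238 pairs. Windows 200 kb apart gave r of 0.02 in each replicate. The cover of a window thus told little about that of the next, and 188 of the 239 windows were neither rich nor poor.

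The richest window of the interior, from 5700001 to 5800000, was covered to 100% in replicate 1 and 99.1% in replicate 2, and lay wholly inside 1 domain. Next came the window from 10500001 to 10600000, with 95.035% in replicate 1 and 95.07% in replicate 2, and that from 9800001 to 9900000, with 88.1 and 92.7%. The window from 6400001 to 6500000 reached 79.7 and 83.0%, and that from 10200001 to 10300000 77.0 and 81.1%. All 5 lie on the centromere side of the middle of the interior, and the 3 highest coordinates among them fall within 1 Mb.

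Only 3 rich stretches ran over more than a single window, and each was 200 kb long. From 6300001 to 6500000, 68.0% was covered in replicate 1 and 70.0% in replicate 2. From 12000001 to 12200000 the shares were 71.5 and 71.7%, and from 14800001 to 15000000 they were 65.2 and 65.8%. The replicates differed by no more than 2 percentage points in any of these stretches.

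Rich windows held wider clusters, and fewer per Mb, than the windows that were neither rich nor poor, whereas poor windows held the fewest. Over all 239 windows cover went up with the number of combined clusters (Spearman's rho of 0.54, as a description). Each cluster was counted in the window of its midpoint, so a window filled by a domain has a low count. The rich windows held 73.5 combined clusters per Mb with a median width of 3623 bp, against 92.8 per Mb and 1903 bp in the 188 windows that were neither rich nor poor, and 16.2 per Mb and 1601 bp in the poor ones. Every rich window touched a domain over 10 kb, 119 of the 188 middle windows did, and 0 of the 34 poor ones. Of the clusters in rich windows 65.6% (interval 56.6 to 73.9) were found in both replicates, against 35.6% (interval 33.3 to 37.9) in middle windows and 20.0% (interval 10.4 to 33.0) in poor ones. The window classes were set from the same lists, so these shares describe the windows and were not tested.

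**Figure D3:**
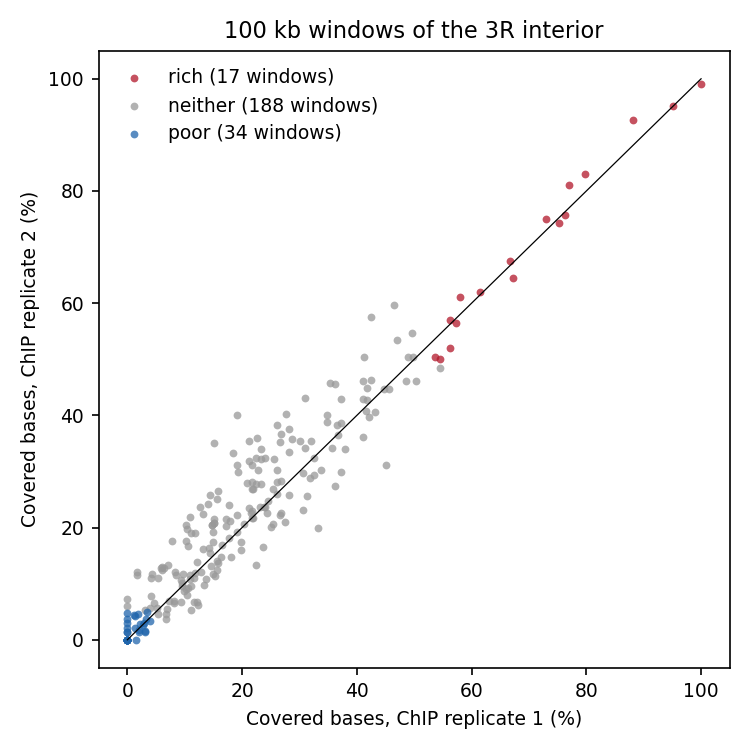
Covered bases in each of the 239 windows of 100 kb, with ChIP replicate 1 on the x axis and ChIP replicate 2 on the y axis, both in percent; the line marks equal shares, and colours mark 17 rich, 34 poor and 188 other windows. The points lie along the line (Pearson's r of 0.96), and the largest difference between the replicates is 21.0 percentage points.

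Poor ground was found along the whole interior and was in part entirely bare. In 13 windows 0% was covered in both replicates, and 11 of these held no cluster of the combined list either. They lay, by their first base, at 6800001, 7100001, 8900001, 13100001, 15500001, 16200001, 18700001, 20200001, 23200001, 23900001 and 24200001. The other 2, at 4200001 and 9300001, held 1 short combined cluster each, covering 1.00% and 1.05%. The 13 tie as the poorest windows, and no order among them is given.

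The longest poor stretch ran over 300 kb, from 23800001 to 24100000, with 1.06% covered in replicate 1 and 2.28% in replicate 2. The other stretches of 2 windows were at 4200001 to 4400000, 8600001 to 8800000, 10700001 to 10900000, 18600001 to 18800000 and 22400001 to 22600000. Covered shares in these ranged in replicate 1 from 0.787 to 2.16% and in replicate 2 from 0.660 to 2.49%.

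The widest interval free of clusters in all 3 lists lay in that longest poor stretch, from 23815864 to 24088650, and spanned 272787 bp. It was followed by intervals of 245603 bp from 23126975 to 23372577 and of 235783 bp from 6715643 to 6951425. Others of 196395 bp from 7070803 to 7267197 and of 193691 bp from 18620389 to 18814079 completed the 5 widest. The first and second of these both lay toward the telomere. In all, 170 intervals of at least 20 kb without a cluster made up 40.0% of the interior, whereas the median interval was 2379.5 bp. Such intervals made up 38.7% of the interior of 2L, 29.0% of 3L, 30.9% of 2R and 42.4% of X. The share of 3R thus lay within the range of the others.

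Cover changed abruptly at some window borders. Between neighbouring windows the mean covered share changed by a median of 12.3 percentage points, and by at least 30 points at 40 of 238 borders. At 210 borders (88.2%) both replicates changed in the same direction. The largest step was the one into the fully covered window described above. Before it, the window from 5600001 to 5700000 had 6.91% in replicate 1 and 5.42% in replicate 2. The window after that one, from 5800001 to 5900000, had 23.4 and 32.1%. Around the window from 9800001 to 9900000 the neighbours had 11.9 and 19.0% on the low-coordinate side and 10.3 and 20.4% on the other.

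At 20 kb, bare and full windows were seen too, and small windows reach such extremes more easily. Of 1195 windows of this size 373 (31.2%) held no covered base in either replicate, and 45 (3.77%) were covered to at least 90% in each. Bare windows were 30.3% on 2L, 22.9% on 3L, 22.2% on 2R and 36.0% on X. Full ones were 4.21, 5.55, 3.38 and 1.85% in the same order, so 3R lay within the range of the other interiors. The replicates correlated with r of 0.93 at this scale.

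Domains, defined as combined clusters wider than 10 kb, numbered 164 in the interior, or 8.51% of its clusters against 9.19% over the whole list. They held 42.7% of the combined bases in the interior. Their median width was 15746 bp, 60 were wider than 20 kb and 5 wider than 50 kb. Their values in the combined list ran from 0.40 to 1.34 with a median of 0.84, and were larger in wider domains (rho of 0.44 across the 164, as a description). The unit of the value is not named by the authors, so it serves here to order clusters within a list.

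Most domains were largely covered in both replicates. The combined list was made from these replicates, so this cover is not independent support. In replicate 1 the median cover was 94.2% and in replicate 2 93.0%, and 128 domains (78.0%, interval 70.9 to 84.1) were covered to at least 80% in each. Over the whole list this share was 72.4%. In replicate 1, 137 domains reached 80% and in replicate 2, 142 did. With a limit of 50% there were 154.

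The 10 domains below that limit in at least 1 replicate were 10179 to 14955 bp wide, with values of 0.40 to 0.56, under the median of all domains. The lowest cover was 27.0% in replicate 1, on the domain from 9236042 to 9248324, of which replicate 2 covered 68.8%. In replicate 2 the lowest was 40.5%, on the domain from 19281854 to 19294618, of which replicate 1 covered 65.9%. The domain from 9736010 to 9747050 was poorly covered by both, to 30.7% in replicate 1 and 42.9% in replicate 2.

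**Figure D4:**
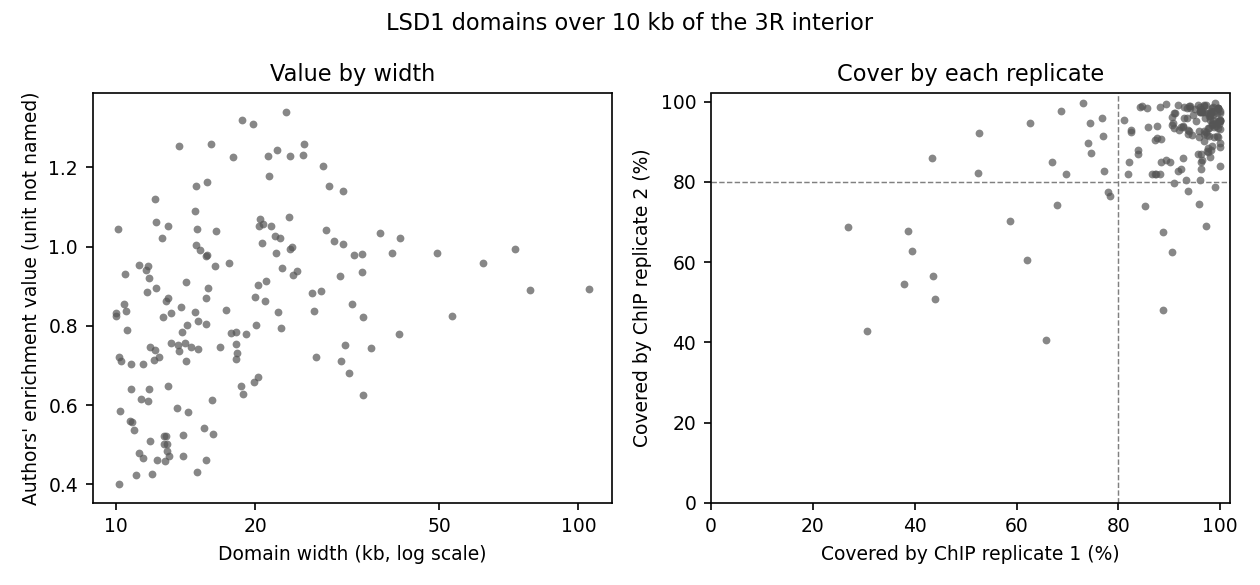
The 164 domains over 10 kb of the 3R interior, one point each: the authors' value in the combined list against domain width (left, log scale), and the share of the domain covered by ChIP replicate 2 against that by ChIP replicate 1 (right, percent, dashed lines at 80%). Values run from 0.40 to 1.34, and 128 points lie at or above 80% on both axes of the right panel.

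The replicates split the same domains differently. In replicate 1, 88 of the 164 domains were a single cluster and in replicate 2, 58, with 46 single in both. Among the 905 domains of the whole list these counts were 471, 275 and 216. Replicate 2 had more pieces in 66 domains here, replicate 1 in 20, and 78 were equal, against 398, 134 and 373 of 905. Where a domain was a single cluster in each, the edges of the replicates lay a median of 369 bp apart over 92 edges, and 58 of the 92 differed by at most 500 bp. The 90th percentile was 1631 bp and the largest distance 14358 bp. That largest one was at the low-coordinate edge of the domain from 25598110 to 25617870. There the replicate 1 cluster ran on into the neighbouring domain from 25581716 to 25598072. Replicate 1 had the wider cluster in 30 of the 46.

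The widest domain, 105201 bp from 5695712 to 5800912, shows what such a split looked like. Replicate 1 held a short cluster of 1527 bp from 5695895, then after a gap of 101 bp a single cluster of 102988 bp from 5697523 to 5800510. Replicate 2 held 7 clusters over the same ground, of 2205 to 28922 bp, separated by gaps of only 23 to 522 bp, from 5697594 to 5800782. The ends on the telomere side nearly coincided. The next combined cluster beyond that end began after 10647 bp, whereas on the centromere side one ended 391 bp away.

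The second widest domain, of 78735 bp from 14875136 to 14953870, was 3 clusters in each replicate, covering 95.04% of it in replicate 1 and 98.03% in replicate 2. Its gaps did not sit at the same places. In replicate 1 they followed 14920474 and 14940827, and in replicate 2 they followed 14919641 and 14950277. The third, of 72799 bp from 10235144 to 10307942, was 1 cluster in replicate 1, from 10235113 to 10307934. In replicate 2 it was 4 clusters with gaps of 808 to 1042 bp near its low-coordinate end, and a single cluster of 52245 bp made up the rest.

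The other 7 of the 10 widest domains ranged from 37171 to 62309 bp. Of the domain from 10551842 to 10614150, 96.1% was covered in replicate 1 and 98.1% in replicate 2. That from 9806034 to 9859354 had 98.2 and 97.1%, and that from 6410660 to 6460134 had 93.7 and 92.9%. A close neighbour, from 6361646 to 6402576, had 94.4 and 91.6%.

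The domain from 17650314 to 17691374 was a single cluster in each replicate, covered to 99.0 and 99.5%, and so was that from 21261210 to 21298380, with 99.6 and 98.4%. Of that from 9865712 to 9905296, replicate 1 covered 89.4%, the lowest share among the 10, and replicate 2 99.4%. Apart from the 3 that start at 14875136, 17650314 and 21261210, all of the 10 widest lay between 5695712 and 10614150.

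Many domains had a neighbour close by. The median distance from one domain to the next was 72267 bp, with quartiles of 20382 and 185821 bp, and 26 pairs were less than 10 kb apart. In 47 bins of 500 kb the number of domains ran from 0 to 9 with a median of 4. The bin with 9, from 4500001 to 5000000, was covered to 39.3% in replicate 1 and 41.2% in replicate 2. It opened a longer block of well covered ground. The bins from 4500001 to 6500000 had 37.1 to 41.7% in replicate 1 and 34.4 to 43.4% in replicate 2. The bin before this block had 11.6 and 10.1%, and the bin after it 12.3 and 16.7%. The bin with 0, from 13000001 to 13500000, was covered to 6.25 and 10.4%.

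Long stretches without a domain were not empty in the same way. The longest, 718091 bp from 13542403 to 14260493, still held 52 combined clusters, which left 9.97% covered in replicate 1 and 12.1% in replicate 2. That from 12951391 to 13526655 held 40, with 7.78 and 12.4%, and a single domain separates it from the longest one. The stretch of 578715 bp from 23571395 to 24150109 held 8 clusters, with 2.71% covered in replicate 1 and 2.60% in replicate 2. This last one encloses the widest cluster-free interval.

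When combined clusters were joined across gaps of up to 5 kb, the 1927 clusters formed 611 stretches, of which 256 were a single cluster. The median stretch was 7365 bp long, 41 reached 50 kb and 5 reached 100 kb. The longest, 210333 bp from 6313058 to 6523390, joined 21 clusters with 5 domains and was covered to 71.9% in replicate 1 and 74.6% in replicate 2.

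The stretch of 177741 bp from 10156826 to 10334566 joined 20 clusters, and that of 157949 bp from 10490372 to 10648320 joined 12, with 84.4% covered in replicate 1 and 81.0% in replicate 2. Those of 108745 bp from 9796552 to 9905296 and of 107191 bp from 5693722 to 5800912 joined only 5 and 2. All 5 lay between 5693722 and 10648320. They were built from the same clusters as the widest domains of that part, so their place is no separate result.

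The clusters with the largest values were a different set from the widest. Of the 10 with the largest value among those found in both replicates, 3 were compact sites of 2883 to 5399 bp, and 7 were domains of 13729 to 25471 bp. None was among the 10 widest.

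The largest value, 1.53, belonged to the site of 5399 bp from 17120728 to 17126126, with 1.81 in replicate 1 and 1.29 in replicate 2. In replicate 1 it was the largest value of the whole interior. The compact site of 2883 bp from 8302070 to 8304952 had a combined value of 1.35, with 1.49 in replicate 1 and 1.17 in replicate 2. The third compact site, 4507 bp from 11066790 to 11071296, had 1.33, with 1.35 in replicate 1 and 1.13 in replicate 2. The scaling of the lists is unknown, so the levels are not compared between them.

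Among the domains of this set, that from 20385580 to 20408918 had 1.34 and a single cluster in each replicate, covering 95.9% in replicate 1 and 91.1% in replicate 2. Those from 3930328 to 3949040 and from 25598110 to 25617870 had 1.32 and 1.31, and were also single clusters in both. So was that from 22953508 to 22967236, with 1.25. In replicate 1 the cluster over the domain from 25598110 was 33702 bp wide and also met the neighbouring domain from 25581716 to 25598072. The domain from 16077238 to 16093276 had 1.26 and was 1 cluster in replicate 1 and 3 in replicate 2. That from 2217680 to 2243150 had 1.26 and that from 12062346 to 12084624 had 1.24, each 1 cluster in replicate 1 and 2 in replicate 2. These 7 were covered to at least 91.1% in each replicate.

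Values of 1 or more were held by 57 members, of which 53 were found in both replicates, 39 of them domains. Of the members found in 1 replicate only, 0 reached this value. The other 4 were found in neither and were 1001 to 1189 bp wide.

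The 3 largest values of all members were among these 4. They were 3.25 from 16094140 to 16095280, 2.71 from 3869600 to 3870600 and 2.50 from 13863656 to 13864660. The first lay 863 bp beyond the domain from 16077238 to 16093276, which had a value of 1.26, and 2511 bp before a further cluster of 1.09. The other 2 had neighbours with values of 0.27 to 0.48. No list says how many reads lie behind a value, so the part of low read numbers in these values was not tested.

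In the 3R interior, clusters found in 1 replicate only stayed lower. The 3 largest of these were found in replicate 2, from 22841356 to 22842732 with 0.88, from 16340774 to 16342086 with 0.67 and from 22471186 to 22472282 with 0.64 in the combined list. All 3 were 1097 to 1377 bp wide and lay wholly inside a cluster of replicate 2, whose own values were 1.00, 0.88 and 0.74. The widest cluster that rested on replicate 1 alone was 7317 bp, and on replicate 2 alone 6279 bp.

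The replicates differed by up to 21.0 percentage points in a single window. In the window from 15600001 to 15700000 replicate 1 covered 19.1% and replicate 2 40.2%, and in that from 17900001 to 18000000 the shares were 15.2 and 35.0%. In the window from 22000001 to 22100000 they were 42.5 and 57.5%. In the other direction, the window from 19800001 to 19900000 had 45.0% in replicate 1 and 31.1% in replicate 2.

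The window from 17100001 to 17200000, which holds the site with the largest supported value, had 33.3% in replicate 1 and 19.9% in replicate 2. That from 18200001 to 18300000 had 22.5 and 13.3%. None of these 6 windows was called rich or poor, which needs both replicates past a limit and so leaves out windows such as that from 22000001 to 22100000.

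Along the arm, cover was uneven without a steady trend. In 5 equal segments of 4.78 Mb from the centromere side to the telomere side, the mean covered shares were 26.0 ± 1.4, 22.8 ± 2.3, 21.1 ± 2.4, 26.4 ± 1.3 and 19.3 ± 0.5% (SD, n = 2 each). In the same order, the segments held 6, 3, 5, 2 and 1 rich windows and 5, 9, 6, 3 and 11 poor ones. The segment next to the telomere side thus had the lowest cover and the most poor windows, and 328 combined clusters against 379 to 423 in the others. The fourth segment had the fewest poor windows, and its cover was within the spread of that of the first. Between 34.0 and 41.2% of the clusters of a segment were found in both replicates.

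Set beside the interiors of other arms, with 2 Mb left out at each end of those too, 3R lay between them in mean covered share. The covered share was 23.2 ± 1.6% on 3R, 24.7 ± 2.2% on 2L, 28.9 ± 1.9% on 3L, 27.6 ± 1.7% on 2R and 20.8 ± 1.7% on X (SD, n = 2 each). Within a replicate, 3R had 0.80 times the share of 3L in each of replicates 1 and 2, 0.84 times that of 2R in each, and 0.96 and 0.92 times that of 2L. Relative to X the replicates gave 1.00 and 1.24, so that the position of 3R above X came from replicate 2. The density of clusters over 10 kb in the replicate lists was 4.96 ± 0.50 per Mb on 3R, 5.05 ± 0.22 on 2L, 6.13 ± 0.41 on 3L, 6.07 ± 0.74 on 2R and 4.40 ± 1.69 on X. The replicates ordered these arms differently. In replicate 1 the density was 5.31 on 3R, 5.21 on 2L and 5.59 on X, and in replicate 2 it was 4.60 on 3R, 4.89 on 2L and 3.20 on X. With 2 replicates an exact two-sided permutation test cannot give a p below 0.5, so none of these differences was tested.

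**Figure D5:**
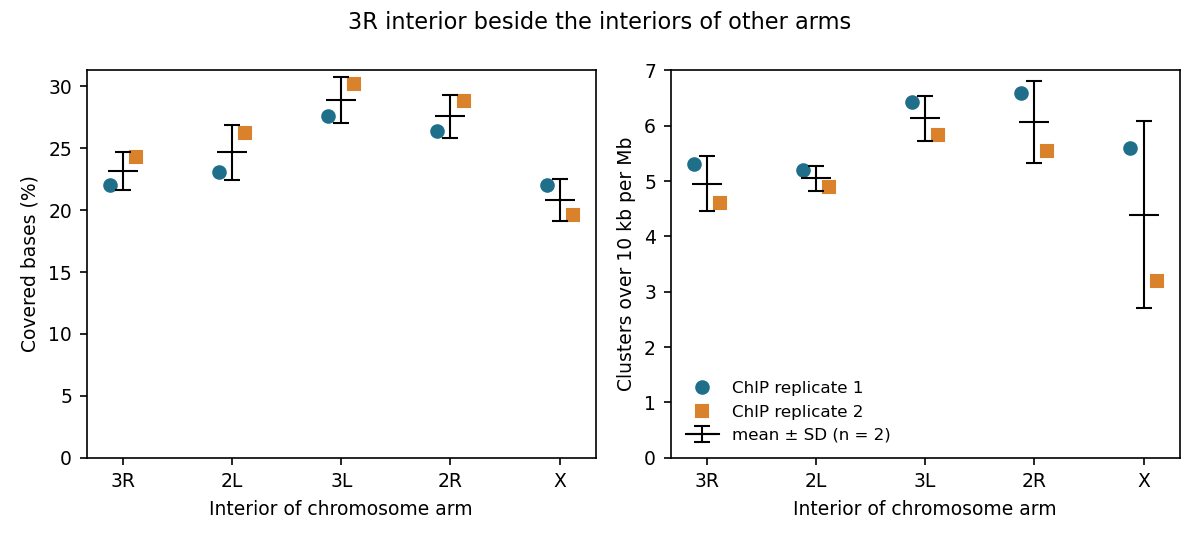
Covered bases (left, percent) and clusters over 10 kb per Mb (right) in the interiors of arms 3R, 2L, 3L, 2R and X, from the replicate lists; circles are ChIP replicate 1, squares ChIP replicate 2, and bars the mean ± SD (n = 2). The 3R interior, at 23.2 ± 1.6% covered, lies below 3L in both replicates and above X clearly in replicate 2 alone.

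Rich windows made up 7.11% of all windows on 3R, 12.6% on 2L, 16.1% on 3L, 9.94% on 2R and 4.35% on X. Poor windows were 14.2% on 3R, 19.5% on 2L, 12.2% on 3L, 9.36% on 2R and 17.9% on X. Rich stretches ran to 200 kb on 3R, 300 kb on 2L, 400 kb on 3L, and 200 kb on 2R and X. The domain of 105201 bp was the widest combined cluster of these 5 interiors, the next being 99225 bp on 3L and 96413 bp on 2L. In replicate 1 alone the widest single cluster was 102988 bp on 3R and 106037 bp on 2L.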

How the data were processed

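Bowtie 0.12.7 was among the tools used, per the submitters' processing notes. Coordinates are on FlyBase release 5, per the file headers. The caller was not given in the sources used here, nor were its threshold, its scaling or the making of the combined list. The deposited lists give each region one score from the authors, called its value here, whose unit no header names. Its levels were compared within a list alone, and between the replicate lists it was used in the correlation of paired clusters. Input chromatin entered through the authors' calls alone.

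Overlap meant at least 1 bp. Covered bases were counted after clipping clusters to the interior. Windows of 100 kb were tiled from the first base of the interior, and the last partial window was left out. Exact 95% intervals are binomial for shares and Poisson for densities. Overlap and coverage were tested on simulated data. Python 3.11.15, numpy 2.4.6, pandas 2.3.3, scipy 1.17.1 and matplotlib 3.10.9 were used. Depth per sample is unknown.

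The members and lists were chosen with earlier results of these data known. Named regions are the 10 widest and the 10 with the largest value among clusters found in both replicates, and the 3 with the largest value among those found in 1 replicate and in neither. They also include the 5 richest and 5 poorest windows, stretches of at least 2 rich or poor windows, the 5 widest bare intervals, the 5 longest joined stretches and the 3 windows with the largest replicate difference in each direction. Bins of 500 kb, windows of 20 kb, border steps, segments, domain edges, domains with low cover, gaps between domains and the limit of 1 on values were chosen after the lists were seen.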

Additional observations from a re-analysis of the deposited data

How the results depend on the processing

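Of 54 alternative values, 33 moved by less than the limit set for them. The limit was the spread, the interval or a factor of 1.5, and correlations had to be equal when rounded to 2 decimals. Values from a single replicate lie within the SD of 2 by construction. The share of clusters found in both replicates was 31.1% when each replicate had to cover at least 50% of the cluster, 24.7% with reciprocal overlap, 39.6% in the top 50% of each list by value, and 48.0% among clusters at least as wide as the narrowest replicate cluster. In the top 50% by value the mean covered share was 16.7% and the density 22.7 clusters per Mb. There were 56 rich and 121 poor windows of 50 kb, and 5 rich and 6 poor ones of 200 kb. With limits of 40 and 10%, 36 windows were rich, and with 60 and 2%, 11 were rich and 16 poor. The correlation of windows was 0.95 at 50 kb and 0.97 at 200 kb. There were 351 clusters wider than 5 kb and 60 wider than 20 kb, and 85 domains were covered to 90% in each replicate. Joining across up to 2 kb gave 995 stretches, and across up to 10 kb 348. With margins of 1 Mb the ratio of 3R to 3L was 0.836. From a single replicate, rich windows numbered 19 to 24 and poor ones 37 to 44. Of the 20 named supported clusters, 18 were found in both with reciprocal overlap. No paired analysis was possible because the input libraries have no list of their own to set against the ChIP lists. Read numbers are unknown, and what depth limits could not be assessed.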

Other observations

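The combined list was not a plain union of the replicate lists. All of its starts and ends (100%) were even numbers, against 50.3% of the starts in each of replicates 1 and 2, and its narrowest cluster was 1001 bp wide, against 1301 bp in each replicate list. In the 3R interior 16.3% of its bases lay in no cluster of either replicate.

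Short clusters of the 3R interior often carried exactly the same value as another cluster of the combined list. This held for 54.0% of the 441 clusters of at most 1.3 kb, 31.9% of the 580 from 1.3 to 2 kb, 13.0% of the 555 from 2 to 5 kb and 1.42% of the 351 wider ones. The largest value of the interior, 3.25 from 16094140 to 16095280, exceeded by 3, to within 1e-06, a value of 0.25 that occurred 26 times in the list. The third largest, 2.50 from 13863656 to 13864660, exceeded by 2 a value of 0.50 that occurred 5 times.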
